A study of Mus musculus with 8 samples.

Results

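The Rab genes are the members of the mouse genome's largest family of small GTPases that carry a plain family name, that is, Rab followed by a number and at most a short suffix. The files held 58 such genes among 17364 gene symbols. Genes that only act on Rabs, such as Rab11fip1 or Rabgef1, are not members and are described separately. After removal of genes with low counts, 49 of the 58 members were tested, out of 12462 genes tested in all, and 9 were below the filter.

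RNA was measured in bone-marrow-derived macrophages (BMDMs), macrophages grown in culture from mouse bone marrow. The cells came from wild-type mice (4 libraries) or from Sept2C111A mice (4 libraries), whose allele name stands for a cysteine-to-alanine change in septin 2, a GTP-binding protein of the cytoskeleton. Both groups had been treated with TNF-α, an inflammatory cytokine, at 30 ng/ml for 24 h, so no untreated state was analysed here. The labels give neither the strain nor the age of the mice, nor whether replicates were separate mice or cultures, and p-values therefore measure the spread among these 8 libraries alone, some or all of which may be technical.

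A Rab protein switches between a GTP-bound form on a membrane and a GDP-bound form held in the cytosol by a dissociation inhibitor. Exchange factors (GEFs) load GTP, activating proteins (GAPs) trigger its hydrolysis, and effectors bind the active form to tether, move or fuse membranes. Each Rab marks particular compartments, and in macrophages this system carries cargo from the cell surface through early, recycling and late endosomes, matures phagosomes, and delivers receptors and cytokines to the surface.

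Each library held 19543958 to 21288493 expected counts. At that depth, 3 counts, taken as the limit for a gene with no read, equal 0.140 to 0.159 CPM, which puts counts of all libraries on 1 normalized library size, a limit that covers counting error only. All 8 macrophage markers in the list were present, with a summed level of 23449 to 25080 CPM in the wild-type group and 21448 to 23702 CPM in the Sept2C111A group. The list of 8 stromal markers, such as Col1a1, was also present. Its summed level was 4322 to 5659 CPM in the wild-type group and 3392 to 4276 CPM in the Sept2C111A group. Those ranges did not overlap, and the part of stromal cells in the results was not tested. Col1a1 averaged 2056 CPM in the wild-type and 1545 CPM in the Sept2C111A group (adjusted p of 0.0453, edgeR). Acta2 averaged 1016 and 659 CPM (adjusted p of 0.0180, edgeR), and both were called lower. The other stromal markers also had lower means, and none of them was called. Summed markers of mast cells or basophils, B cells and T or NK cells were at most 1.00 CPM in every library. Those of neutrophils reached 7.52 CPM and those of dendritic cells 3.45 CPM, and the groups overlapped. Endothelial markers summed to 4.06 to 4.30 CPM in the wild-type and 4.88 to 5.63 CPM in the Sept2C111A group. Those ranges did not overlap, and the part of these markers in the results was not tested. Of the 4 endothelial markers only Pecam1 averaged at least 1 CPM, at 2.92 in the wild-type and 4.02 in the Sept2C111A group. Its adjusted p was 0.0450 (edgeR). Cdh5 went the other way, from 0.686 to 0.478 CPM. Means of Kdr (0.532 and 0.664 CPM) and Tek (0.0239 and 0.0378 CPM) were slightly higher. Each library is a whole culture, in which fewer cells of a type and less RNA per cell cannot be told apart. Septin2, the gene that carries the allele, averaged 226 ± 7.43 CPM in the wild-type and 188 ± 18.7 CPM in the Sept2C111A group (mean ± SD, n = 4). It was not called (adjusted p of 0.063, edgeR), and counts per gene cannot show the altered codon.

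Before the comparison of genotypes, the order of expression in these macrophages was described with TPM, counts divided by transcript length and scaled to the same total in every library, which allows genes of different length to be compared. Summed TPM of all Rab genes made up 0.302% to 0.368% of the library total. It was 3508 ± 129 TPM in wild-type and 3315 ± 272 TPM in Sept2C111A libraries (mean ± SD, n = 4). The mean level over the 8 libraries was at least 100 TPM for 11 members, 10 to under 100 for 22, 1 to under 10 for 9, and under 1 for 16.

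Rab7, which directs late endosomes and phagosomes to fuse with lysosomes, had the highest level, at 534 TPM. Rab5c, one of the Rab5 proteins that define the early endosome, followed at 411 TPM. Rab10, which moves receptors and transporters to the cell surface, stood at 229 TPM. The endoplasmic reticulum to Golgi Rabs Rab1b and Rab1a stood at 218 and 171 TPM. These 5 genes together held 46.3% ± 0.584 of the family's TPM in wild-type and 45.2% ± 0.863 in Sept2C111A libraries (mean ± SD, n = 4). The order below the first pair depends on the length used. With the median length of a gene's coding transcripts in place of the principal transcript, Rab1b (351 TPM), Rab11a (276 TPM) and Rab14 (269 TPM) came next after Rab7 (463 TPM) and Rab5c (445 TPM).

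**Figure D1:**
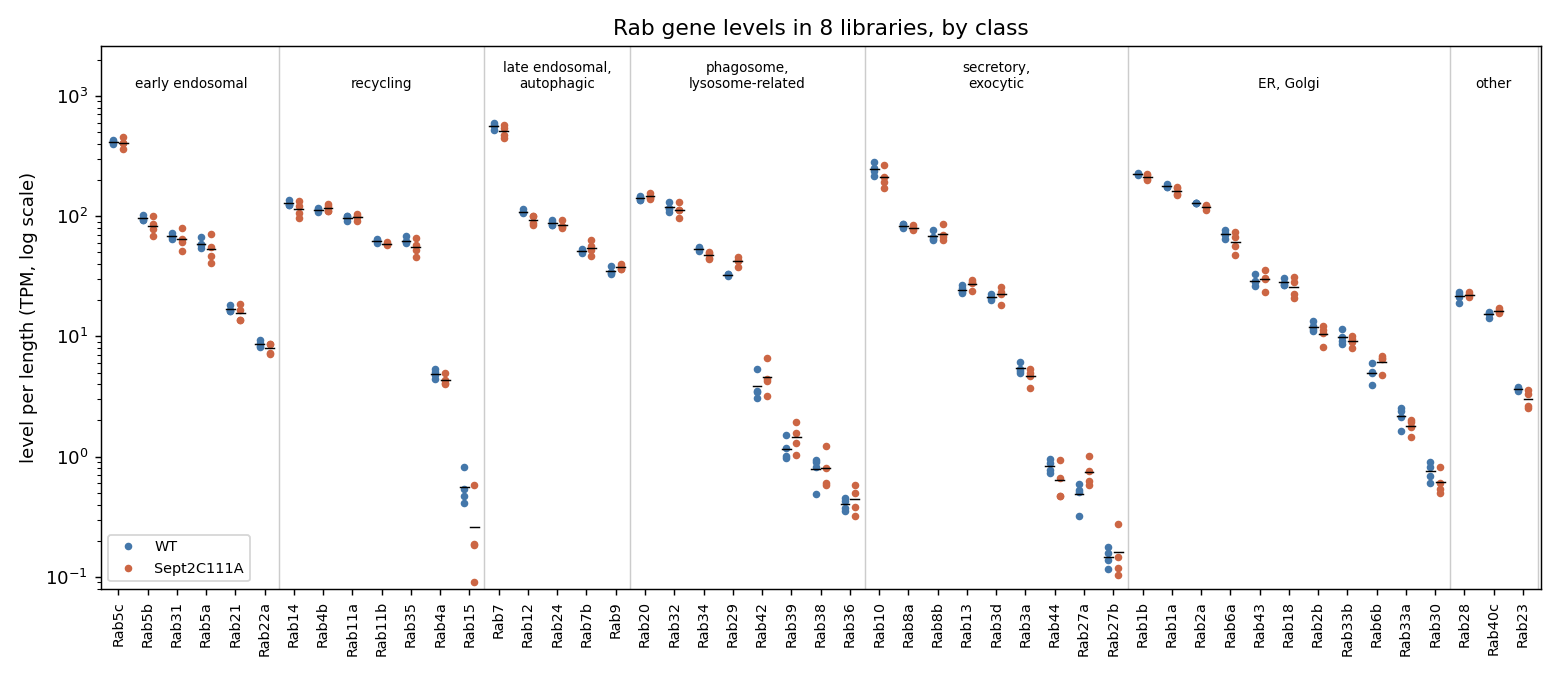
Level per length (TPM, log scale) of the 49 tested Rab genes in each of 8 libraries, ordered by mean level within 7 classes, with a short line at each group's mean. Rab7 and Rab5c stand highest, and wild-type and Sept2C111A points overlap for most genes.

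Among paralogs, the order of levels was nearly the same in every library. Of 14 neighbouring pairs within the paralog sets, 13 kept their order in 8 of 8 libraries. The exception was Rab8a over Rab8b, 2 genes of surface delivery, at a ratio of mean TPM of 1.17 and the same order in 7 of 8 libraries. The Rab5 genes ran Rab5c, Rab5b, Rab5a, with ratios between neighbours of 4.59 and 1.59. Rab7 lay 10.1 times above Rab7b, which acts between late endosomes and the Golgi. Rab4b, of rapid recycling, lay 24.8 times above Rab4a, and Rab32 lay 145 times above Rab38, its close relative in melanosomes and other lysosome-related organelles. With the other transcript length, 0 of the 14 pairs changed order, but the ratios did change. With it Rab7 and Rab7b were at 463 and 146 TPM, and Rab5c and Rab5b at 445 and 59.7 TPM. Coding sequences were aligned for Rab3a with Rab3d and for the paralogs of the other sets, and were 60.6% (Rab7 and Rab7b) to 78.4% (Rab6a and Rab6b) identical. Of the 58 Rab transcripts, 44 shared no stretch of 50 bases with a coding transcript of another gene. The share was above 4% for 4 members. It was 43.5% for Rab24 (with Prelid1), 20.8% for Rab6a (with Mrpl48), 11.7% for Rab43 (with Gm45140) and 7.42% for Rab5a (with Pp2d1). The counts of these 4 are less certain for that reason. Transcripts that do not code were not searched, so counts of other members may be uncertain too. Expected counts of Rab7, Rab5c, Rab10, Rab1b and Rab1a were whole numbers in 0 of 8 libraries, and those of Rab29 in 6 of 8. The cause was not tested.

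The family shares its GTP-binding fold, and the switch II region, which changes shape with the bound nucleotide, begins with codons for tryptophan, aspartate, a variable residue, alanine, glycine, glutamine and glutamate. Searched in the 58 coding sequences, that series of codons was found in 51. The variable codon was for threonine in 48 and for isoleucine in 3, which are Rab29, Rab32 and Rab38. No match was found for Rab20, Rab24, Rab25, Rab28, Rab40b, Rab40c and Rab7b, which says only that these codons are not there in this order. The 30 bases that start at the tryptophan codon are shown for those 3 genes, because Rab29 is the only member called between genotypes, and for Rab7 and the Rab5 genes, the best-known markers of late and early endosomes. Capitals mark the variable codon, and sequences run 5′ to 3′ along the coding strand (GENCODE M21 transcripts, GRCm38, the mm10 build).
Rab29: tgggatATTgcagggcaggagcgtttcaca
Rab32: tgggatATCgcgggacaggaacggtttggc
Rab38: tgggacATTgctggtcaagaaagatttgga
Rab7: tgggacACAgccggtcaagaacggttccag
Rab5c: tgggacACAgctggccaagagcgctatcac
Rab5b: tgggacACTgctgggcaggagcgataccac
Rab5a: tgggatACAgctggtcaagaacggtatcat

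In Rab29 the stretch crosses exons 3 and 4 on chromosome 1, between 131869992 and 131870696 on the plus strand. In Rab32 it crosses exons 1 and 2 on chromosome 10, between 10550940 and 10557857 on the minus strand. In Rab38 it crosses exons 1 and 2 on chromosome 7, between 88430591 and 88450497 on the plus strand. The other 4 lie within a single coding exon. That of Rab7 is in exon 4 on chromosome 6, at 88005179 to 88005208 on the minus strand. Those of the Rab5 genes are in exon 3, for Rab5c on chromosome 11 at 100718497 to 100718526 (minus), for Rab5b on chromosome 10 at 128683261 to 128683290 (minus), and for Rab5a on chromosome 17 at 53497583 to 53497612 (plus). Over the whole coding sequence Rab29 was 61.6% identical to Rab38, 58.7% to Rab32 and 55.1% to Rab7.

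Sept2C111A and wild-type macrophages were then compared gene by gene. Of the 49 tested Rab genes, 1 rose and 0 fell in Sept2C111A libraries at an adjusted p under 0.05 (edgeR). The 1 call is 2.04% of the members, where 6.46% of all tested genes were called in either direction, 3.43% higher and 3.03% lower. At an unadjusted p under 0.05 there were 8 members higher and 2 lower, against 12.3% and 12.5% of all tested genes. DESeq2 called 2 members higher, Rab29 and Rab6b, and limma voom called Rab29, where they called 11.6% and 6.52% of all tested genes. The median log2 fold change was 0.02 over the members and 0.01 over all tested genes. The 95% interval of the log2 fold change lay within 0.5 of 0, that is, between a 0.707-fold and a 1.41-fold level, for 36 of 49 members (73.5%) and for 65.4% of all tested genes. That bound was chosen after the values were seen. A log2 fold change of at least 0.5 in either direction was found for 2 members, Rab15 and Rab27a (4.08%), both under 2 CPM, and for 8.57% of all tested genes. The 2 groups of libraries did not overlap for 5 members (10.2%) and for 16.9% of all tested genes. They were Rab29, Rab9, Rab27a and Rab3d above wild type, where the share over all tested genes was 8.47%, and Rab12 below it, where that share was also 8.47%.

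**Figure D2:**
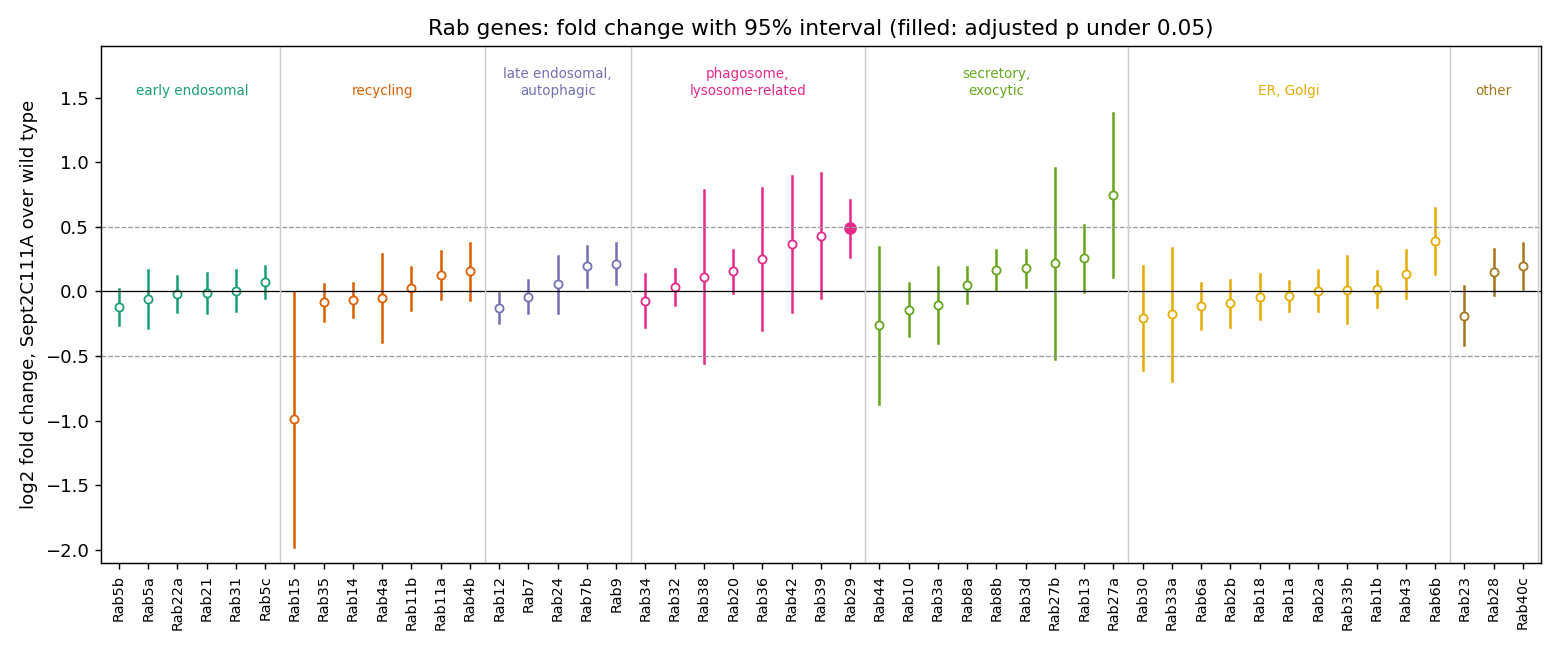
log2 fold change of Sept2C111A over wild type with its 95% interval (edgeR) for 49 Rab genes in 7 classes, in rising order within each class. The filled point, Rab29, is the only one with an adjusted p under 0.05, and broken lines mark 0.5 on either side of 0.

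Rab29, which is known for recruiting the kinase LRRK2 to the Golgi and to stressed lysosomes, was the member that rose. Its level in wild-type libraries 1 to 4 was 19.6, 19.5, 20.0 and 20.7 CPM, and in Sept2C111A libraries 1 to 4 it was 27.2, 31.0, 31.2 and 22.5 CPM. All 4 Sept2C111A libraries lay above all 4 wild-type libraries, which were close together, and Sept2C111A library 4 lay nearest to them. The means were 20.0 ± 0.549 and 28.0 ± 4.11 CPM (SD, n = 4), a rise of 40.1%. The log2 fold change was 0.49 (SE 0.10, 95% interval 0.26 to 0.71) with an adjusted p of 0.0201 (edgeR). The call was lost without wild-type library 1, 2, 3 or 4 (adjusted p of 0.0741, 0.0544, 0.0737 and 0.0510, edgeR), when Sept2C111A library 2 was left out (0.0682), and when libraries 2 and 3 of that genotype were both left out (0.0784, log2 fold change 0.32). The log2 fold change ranged from 0.32 to 0.59 over all alternatives. Where leaving out libraries lost the call, 2.12% to 3.86% of all tested genes were called, against 6.46% with all libraries.

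Rab29 lies on chromosome 1 at 131867224 to 131872887 on the plus strand (GRCm38), 38.4 Mb from the end of the septin 2 gene (93478964 to 93510260), on the same chromosome. Neighbouring Slc41a1, a magnesium transporter, was not called (log2 fold change -0.12, adjusted p 0.49, edgeR), nor was Nucks1, which encodes a nuclear DNA-binding protein (-0.04, adjusted p 0.88). Rab7b, another member, ends 152 kb before Rab29 and was not called (log2 fold change 0.19, adjusted p 0.13, edgeR). Ctse, the protease cathepsin E, lies on the far side of Rab7b and averaged 0.650 ± 0.103 and 1.196 ± 0.248 CPM (n = 4). Its groups did not overlap (log2 fold change 0.87, adjusted p 0.056, edgeR), and it was named after its values were seen. Dyrk3, looked up with these genes, was not called (log2 fold change -0.03, adjusted p 0.956, edgeR). Pm20d1, also looked up, averaged 0.343 and 0.395 CPM and was not tested. LRRK kinases phosphorylate several Rabs, and neither was called. Lrrk2 averaged 4.05 ± 0.665 CPM in the wild-type and 3.30 ± 1.13 CPM in the Sept2C111A libraries (n = 4, adjusted p of 0.49, edgeR). Lrrk1 averaged 37.0 ± 2.81 and 42.3 ± 6.77 CPM (adjusted p of 0.30).

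In the early endosomal class, which receives cargo from the plasma membrane, 0 of 6 members passed the test and the median log2 fold change was -0.02. All 6 intervals lay within 0.5 of 0. Rab5c measured 402, 398, 406 and 389 CPM in the wild-type and 401, 430, 422 and 424 CPM in the Sept2C111A libraries, groups that overlapped (log2 fold change 0.07, 95% interval -0.05 to 0.19). Rab5b had the lowest value of the class, at -0.12. Rab31 and Rab22a, relatives of Rab5 that act between the Golgi and endosomes, had 0.00 and -0.02. Rab21, which takes part in integrin traffic, had -0.02 and Rab5a -0.06.

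Among the recycling Rabs, which return receptors to the surface, 0 of 7 tested members passed and the median was -0.05. Rab14, which acts between the Golgi and endosomes, had the highest mean per length over the 8 libraries, at 121 TPM, close to Rab4b at 115 TPM. In the Sept2C111A group alone Rab4b was higher, at 117 ± 8.16 against 114 ± 16.6 TPM (n = 4). With the median length of coding transcripts the order was Rab11a (276 TPM), Rab14 (269 TPM), Rab11b (160 TPM) and Rab4b (76.6 TPM). In CPM, Rab14 measured 194, 204, 198 and 196 CPM in the wild-type and 192, 181, 179 and 202 CPM in the Sept2C111A libraries, overlapping groups, with a log2 fold change of -0.07 (95% interval -0.20 to 0.06). Rab11a and Rab11b, of slow recycling, had 0.13 and 0.02, and Rab4b had 0.16. Rab15, named after its values were seen, had the lowest value of all members, at -0.99 (95% interval -1.98 to -0.01). It was near the detection limit, at 0.859, 1.26, 0.660 and 0.764 CPM in the wild-type and 0.946, 0.159, 0.356 and 0.284 CPM in the Sept2C111A libraries. Sept2C111A library 1 lay inside the wild-type range, the other 3 below it, and the adjusted p was 0.20 (edgeR). Without Sept2C111A library 1, Rab15 was called lower, and 4.08% of tested members and 7.76% of all tested genes were called in either direction.

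Late endosomal and autophagic Rabs carry cargo to lysosomes, and 0 of 5 tested members passed, with a median of 0.05. Rab7 measured 621, 619, 610 and 575 CPM in the wild-type and 606, 566, 585 and 601 CPM in the Sept2C111A libraries, which overlapped (log2 fold change -0.04, 95% interval -0.17 to 0.09). Outside the naming rule, because their groups did not overlap, 2 members of this class are given. Rab9, which returns mannose 6-phosphate receptors from late endosomes to the Golgi, measured 24.5, 27.0, 24.0 and 25.6 CPM in the wild-type and 29.7, 28.8, 31.7 and 27.1 CPM in the Sept2C111A libraries. Every Sept2C111A value was above every wild-type value, and Sept2C111A library 4 was close to wild-type library 2 (log2 fold change 0.21, adjusted p of 0.098, edgeR). Rab12, an LRRK2 substrate that directs receptors to degradation, measured 111, 111, 110 and 108 CPM in the wild-type and 104, 98.1, 103 and 97.6 CPM in the Sept2C111A libraries. Every Sept2C111A value was below every wild-type value (log2 fold change -0.13, adjusted p of 0.17, edgeR). Rab7b had 0.19 and Rab24, of autophagosomes, 0.05.

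The class of phagosome and lysosome-related organelle Rabs held Rab29 and had the highest class median, 0.20, with 7 of 8 tested members above 0. The median of the secretory class was above it without wild-type library 2 (0.196 against 0.170) or Sept2C111A library 1 (0.176 against 0.157). The share of all tested genes above 0 was 51.8%, and over the 49 Rab genes it was 57.1%. Rab29 was the 1 of the 8 that passed. Rab20, which takes part in phagosome maturation, measured 95.02, 96.9, 96.4 and 105 CPM in the wild-type and 102, 120, 117 and 98.5 CPM in the Sept2C111A libraries. Sept2C111A libraries 2 and 3 were above the wild-type range and libraries 1 and 4 within it (log2 fold change 0.16, adjusted p of 0.23, edgeR). Rab32, which has the isoleucine codon in switch II as Rab29 does, had 0.04 (95% interval -0.11 to 0.18). Rab39, linked to phagosome acidification, rested on 1.74 ± 0.331 CPM in the wild-type and 2.34 ± 0.590 CPM in the Sept2C111A libraries (n = 4), with 0.43 and an adjusted p of 0.25 (edgeR). The other members had values from -0.07 (Rab34) to 0.37 (Rab42), and Rab38 and Rab36 were under 1 CPM.

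Among secretory and exocytic Rabs, which bring vesicles and granules to the surface, 0 of 9 tested members passed and the median was 0.17. With a filter of at least 1 CPM in 4 libraries that median was 0.05. Rab10 measured 449, 484, 421 and 388 CPM in the wild-type and 383, 375, 362 and 460 CPM in the Sept2C111A libraries. Sept2C111A libraries 1 to 3 were below the wild-type range and library 4 within it (log2 fold change -0.14, 95% interval -0.35 to 0.06). Rab13, of cell junctions and the leading edge, averaged 13.7 ± 1.24 and 16.3 ± 2.50 CPM (n = 4, log2 fold change 0.26, adjusted p of 0.21, edgeR). It was called without Sept2C111A library 4 (0.36, adjusted p of 0.0273, edgeR), where 6% of tested members and 16.5% of all tested genes were called. Rab3d, of regulated exocytosis, averaged 41.2 ± 1.34 and 46.6 ± 2.85 CPM (n = 4, log2 fold change 0.18, adjusted p of 0.12, edgeR). Rab27a, of secretory lysosomes and exosomes, averaged 0.768 ± 0.166 and 1.299 ± 0.455 CPM (n = 4). Its log2 fold change of 0.75 was the highest among members, with an interval of 0.11 to 1.38 and an adjusted p of 0.14 (edgeR). Rab3d and Rab27a were named for groups that did not overlap. Rab8a and Rab8b had 0.05 and 0.17.

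Of the ER and Golgi Rabs, which carry proteins along the early secretory route, 0 of 11 tested members passed and the median was -0.03. Rab1b measured 223, 207, 212 and 220 CPM in the wild-type and 223, 211, 237 and 204 CPM in the Sept2C111A libraries, groups that overlapped (log2 fold change 0.02, 95% interval -0.12 to 0.16). Rab6b, a form of Rab6 best known from neurons, measured 10.02, 14.6, 12.7 and 13.0 CPM in the wild-type and 16.98, 17.8, 14.4 and 16.6 CPM in the Sept2C111A libraries. Only Sept2C111A library 3 fell inside the wild-type range, below wild-type library 2. The log2 fold change was 0.39 (95% interval 0.14 to 0.64), with an adjusted p of 0.069 in edgeR and 0.0287 in DESeq2. Without Sept2C111A library 3 edgeR called Rab6b (0.0437), and with it 6% of tested members and 5.66% of all tested genes. Rab6a, of the same Golgi transport, had -0.11. Rab30, of the Golgi, averaged 3.59 ± 0.680 and 3.11 ± 0.560 CPM (n = 4, log2 fold change -0.21, adjusted p of 0.52, edgeR).

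Among 3 tested members outside these classes, 0 passed. Rab28, of cilia, averaged 17.6 ± 1.404 and 19.6 ± 1.03 CPM (n = 4, log2 fold change 0.15). It had the highest mean per length of the 3 (21.9 TPM), but Rab40c, part of a ubiquitin ligase, was higher in CPM (19.2 ± 1.42 and 22.0 ± 1.51) and had a log2 fold change of 0.20. With the median length of coding transcripts Rab40c was also higher in TPM, at 15.5 against 14.6. Rab23, an inhibitor of Hedgehog signalling, had -0.19 and an adjusted p of 0.29 (edgeR).

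The classes were also set side by side as shares of the family's TPM, with no test. These shares use the principal transcript's length and were not computed with the median length of coding transcripts. With that median length Rab11a, Rab14 and Rab11b were at 276, 269 and 160 TPM in place of 97.7, 121 and 60.6. Rab4b was at 76.6 TPM in place of 115, and Rab7 at 463 in place of 534. The order of the classes may therefore depend on the length used. Early endosomal Rabs made up 18.9% ± 0.147 in wild-type and 19.0% ± 0.830 in Sept2C111A libraries (mean ± SD, n = 4, as for each class). Recycling Rabs made up 13.4% ± 0.361 and 13.6% ± 0.579. Late endosomal and autophagic Rabs made up 24.0% ± 0.374 and 23.5% ± 0.535. In these 3 endosomal classes the groups overlapped. Secretory Rabs made up 12.9% ± 0.584 and 12.6% ± 0.629, and ER and Golgi Rabs 19.6% ± 0.323 and 19.3% ± 0.443, also overlapping. Phagosome and lysosome-related organelle Rabs made up 10.02% ± 0.240 and 10.8% ± 0.621, from 9.70% to 10.3% in wild-type and from 10.1% to 11.5% in Sept2C111A libraries, ranges that overlapped.

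**Figure D3:**
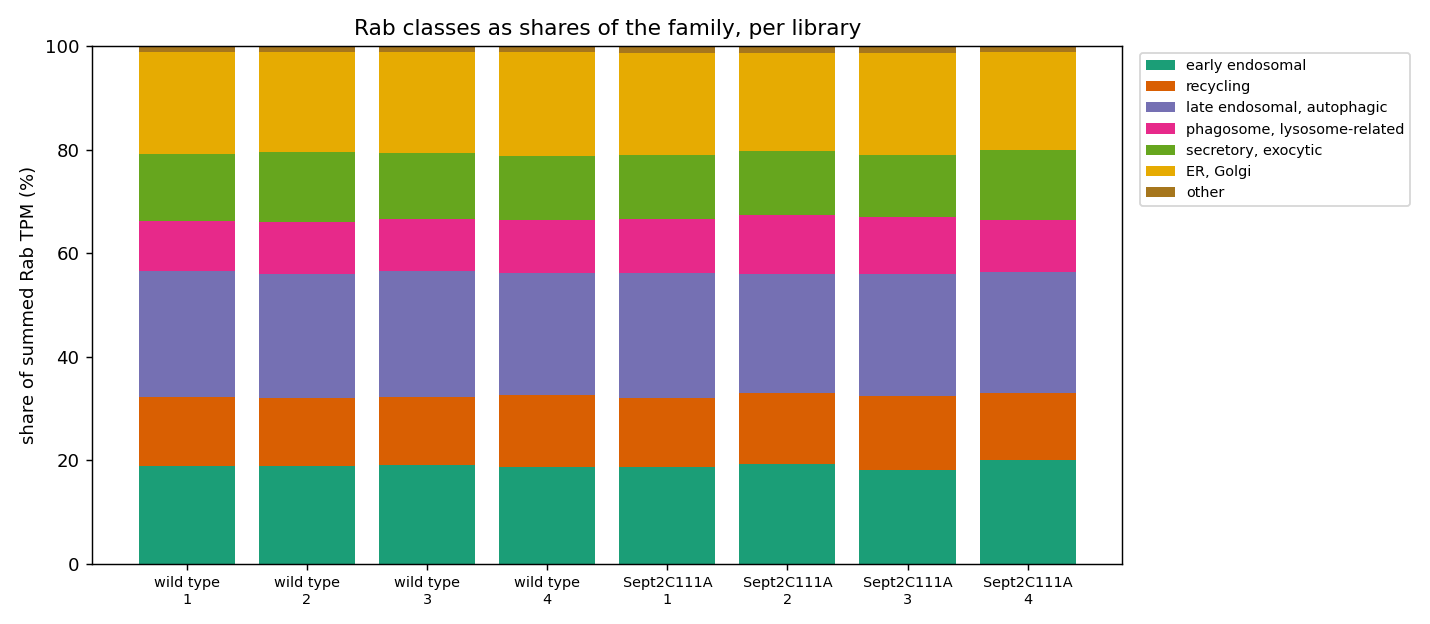
Share of summed Rab TPM (%) held by each of 7 classes in each of 8 libraries, stacked from early endosomal Rabs at the bottom. TPM uses the length of the principal transcript. Late endosomal and autophagic Rabs take about the same part of every bar, from 22.8% to 24.3%.

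The 9 members below the filter had few reads. Over the 8 libraries Rab3b had 1 to 11 expected counts, Rab3c 0 to 3.43, Rab9b 0 to 2, Rab19 5 to 24 and Rab25 0 to 3. Rab26 had 0 to 3, Rab37 1 to 8, Rab39b 5 to 13 and Rab40b 3 to 7. None of them was compared between genotypes.

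Libraries differed more among Sept2C111A than among wild-type samples, in the Rab family as elsewhere. The median SD of log2 CPM was 0.0791 in wild-type and 0.140 in Sept2C111A libraries over the 49 members, and 0.0969 and 0.170 over all tested genes. For 41 of 49 members (83.7%) the SD was larger in Sept2C111A, and for 79.0% of all tested genes. Sept2C111A library 3 held the highest or lowest value of the 8 libraries for 28 members (57.1%), and library 4 for 20 (40.8%), where the shares over all tested genes were 53.3% and 37.3%. Wild-type library 2 did so for 18 members (36.7%), against 23.8% of all tested genes. Sept2C111A libraries 3 and 4 also differed from each other with transcript length. Rab10, with a transcript of 3513 bases, was at 362 CPM in library 3 and 460 CPM in library 4, and Rab4b, with 1192 bases, was at 87.3 and 64.4 CPM. Across the 49 members the log2 difference of library 3 minus library 4 had a Spearman's rho with length of -0.43, and across 12321 tested genes of -0.59. These are descriptions of genes in the same 2 libraries, and genes are not independent replicates. Length and the log2 fold change between genotypes had a rho of -0.13 over the members and -0.28 over all genes. With the trend on length removed from the counts of every library, 5 members were called higher, Rab29, Rab3d, Rab6b, Rab7b and Rab8b, that is 10.2% of 49, and 11.5% of all genes were called in either direction. The part of this difference in other results was not tested.

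**Figure D4:**
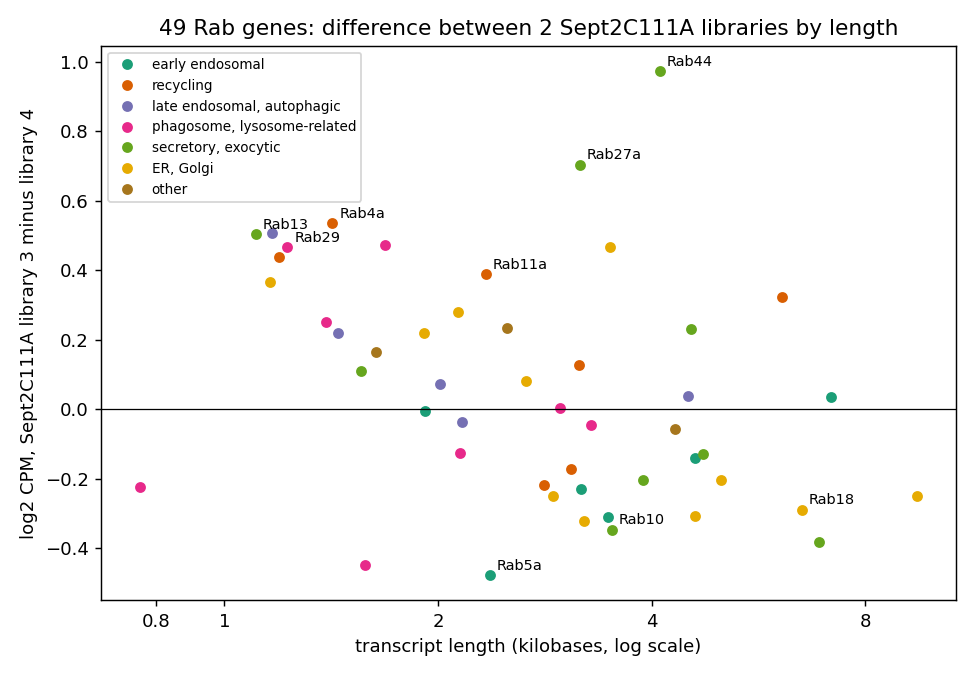
log2 CPM of Sept2C111A library 3 minus library 4 against transcript length (kilobases, log scale) for 49 Rab genes, coloured by class. Short transcripts such as Rab29 and Rab13 lie mostly above 0, longer ones such as Rab10 and Rab18 mostly below 0.

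Genes that act on Rabs were described from lists with 150 entries, of which 146 were found and 135 tested. In Sept2C111A libraries 6 rose and 2 fell (5.93%, where 6.46% of all tested genes were called). Of 12 tested genes in the list built around GDIs, escort proteins and prenylation enzymes, 0 passed. Such proteins keep Rabs soluble or attach their lipid anchors, which does not hold for every gene of that list. At an unadjusted p under 0.05 (edgeR) there were 2 of the 12, where 24.8% of all tested genes had such a p. Gdi2, a dissociation inhibitor, averaged 504 ± 7.30 and 547 ± 44.5 CPM (n = 4, adjusted p of 0.31, edgeR).

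Of 44 GEFs 2 rose, 0 fell and 42 did not pass, or 4.55% called against 6.46% of all tested genes. Rab3il1, which activates Rab8 proteins, measured 95.9, 89.2, 94.8 and 92.3 CPM in the wild-type and 113, 118, 145 and 115 CPM in the Sept2C111A libraries. Every Sept2C111A value was above the wild-type range, with library 3 well above the others (log2 fold change 0.40, SE 0.083, adjusted p of 0.0185, edgeR). Dennd1b, which activates Rab35, rose from 12.4 ± 0.789 to 16.9 ± 2.55 CPM (n = 4, log2 fold change 0.44, adjusted p of 0.0386, edgeR). Of 37 GAPs 1 rose, 0 fell and 36 did not pass, or 2.70% called. Tbc1d22a, a Golgi protein with the domain of Rab GAPs, rose from 39.0 ± 1.12 to 47.2 ± 1.85 CPM (n = 4, log2 fold change 0.27, adjusted p of 0.0223, edgeR).

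Of 42 effectors and LRRK kinases 3 rose, 2 fell and 37 did not pass. The 5 calls are 11.9% of that list, where 6.46% of all tested genes were called, 3.43% higher and 3.03% lower. Plekhm1, a Rab7 effector that tethers late endosomes and autophagosomes to lysosomes, rose from 77.9 ± 2.75 to 96.5 ± 7.01 CPM (n = 4, log2 fold change 0.31, adjusted p of 0.0222, edgeR). Pik3c3, the lipid kinase VPS34 that makes the phosphoinositide of early endosomes, rose from 32.7 ± 1.48 to 40.7 ± 4.18 CPM (n = 4, log2 fold change 0.31, adjusted p of 0.0450, edgeR). Of the 5 Rab11fip genes, which encode Rab11 effectors, 1 rose, 1 fell and 3 did not pass. Rab11fip5 rose from 74.8 ± 2.26 to 92.6 ± 8.88 CPM (n = 4, log2 fold change 0.31, adjusted p of 0.0339, edgeR). Rab11fip1, also called Rab coupling protein, fell from 19.3 ± 1.51 to 14.3 ± 1.61 CPM (n = 4, log2 fold change -0.43, adjusted p of 0.0291, edgeR). Micall2, which links Rab8 and Rab13 to actin, fell from 49.5 ± 0.906 to 40.4 ± 2.89 CPM (n = 4, log2 fold change -0.29, adjusted p of 0.0277, edgeR). Eea1, the early endosomal tether of Rab5, and Rilp, which couples Rab7 to dynein, did not pass (adjusted p of 0.49 and 0.39, edgeR). The wild-type and Sept2C111A libraries did not overlap for any of the 8 called genes. The calls rest on the same libraries, so this adds no separate support. Groups did not overlap for 16.9% of all tested genes, nor for some listed genes that were not called, such as Rin3 and Appl1. All 8 calls were lost without at least 1 single library. Without wild-type library 1, 3 or 4, 0 of the 8 passed, and without wild-type library 2 only Tbc1d22a did. Of all tested genes 2.24%, 3.77%, 2.12% and 2.99% were called without wild-type library 1, 2, 3 and 4, against 6.46% with all libraries. Without Sept2C111A library 2, Dennd1b, Tbc1d22a, Rab11fip5, Pik3c3 and Rab11fip1 were lost (adjusted p of 0.0532 to 0.133, edgeR). Pik3c3 was also lost without Sept2C111A library 1 (0.0600) or 3 (0.0721). The share of all tested genes called was 2.86%, 7.76% and 5.66% without Sept2C111A library 2, 1 and 3.

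**Figure D5:**
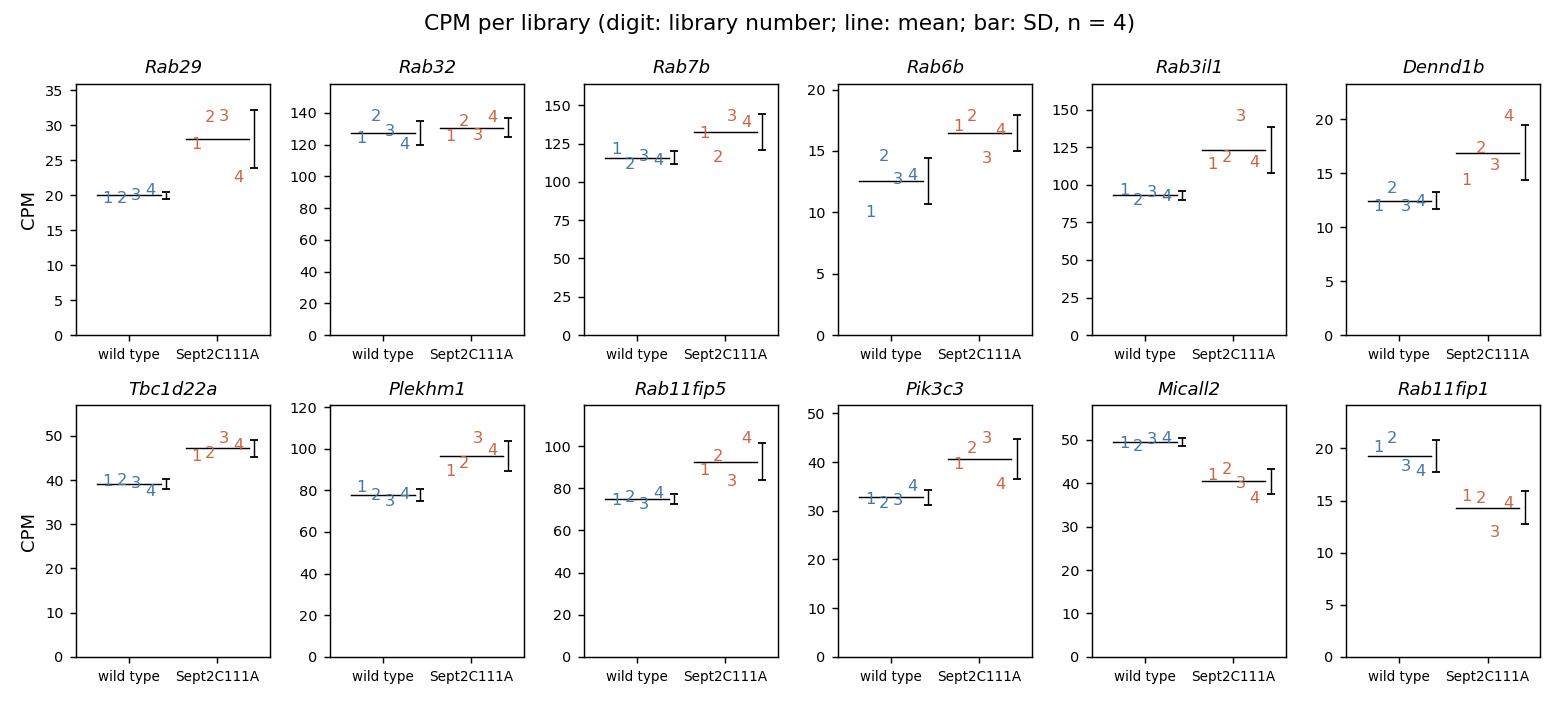
CPM per library for 4 Rab genes and 8 regulators or effectors, with digits for library numbers, a line at the mean and a bar of 1 SD (n = 4) either side. For Rab29 and the 8 regulators and effectors the 2 groups do not overlap, while for Rab32, Rab7b and Rab6b they do.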

How the data were processed

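Poly(A)-selected RNA, per the labels' protocols, was measured in 8 libraries. The authors deposited expected counts per gene symbol. Bowtie2, RSEM 1.3.1 and DESeq2 1.4.5 are listed, with the build mm10, per the submitters' processing notes. Strandedness is not given in the sources used here, and without it overlapping antisense genes cannot be told apart. Members and gene lists were chosen with earlier results of these data known, and Rab17 was not analysed here.

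Expected counts were rounded and filtered with filterByExpr (minimum count 10), normalized by TMM and tested with the two-sided quasi-likelihood test of edgeR 4.0.16 in R 4.3.3, with genotype as the only term. Adjustment was by Benjamini-Hochberg over 12462 genes, and genes were called at 0.05. TPM was computed from unrounded expected counts and GENCODE M21 lengths (16941 genes). On counts simulated with these library sizes (12393 genes), edgeR called 99% of 100 genes at a log2 change of 1 and 73% of 100 at 0.5, with 13 false calls. Every simulated gene had the same dispersion in both groups, and no length trend was included. In the data the median SD of log2 CPM was 0.0969 in wild-type and 0.170 in Sept2C111A libraries. Those shares check the procedure and are not the power of this comparison. No library was a copy of another (mean chi-square per gene of at least 3.87 in every pair).

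Named genes are those called, the highest member by TPM per class, and the 3 largest rises and falls not called at 2 CPM or more. Up to 3 called regulators per list and direction are named. Others were chosen after their values were seen. Alternatives were DESeq2 1.42.0, limma 3.58.1 voom, other filters and normalization, a replicate block, and each library left out. Removal of the length trend (mgcv 1.9.3) was chosen after seeing the data.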

Additional observations from a re-analysis of the deposited data

Results flagged for a closer look

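In 128 groups of 4 libraries, 3 held a value far from the other 3, all of them in Sept2C111A library 3. Chance gives about 1 in 20 such groups, so 3 of 128 is no more than chance gives. The groups share the same libraries and are not independent. Rab2a, of Golgi transport, was at 157 CPM in that library, where the other Sept2C111A libraries were at 129 to 133 CPM. Its paralog Rab2b was at 14.4 CPM there, below the 16.8 to 17.3 CPM of the others. The exchange factor Rab3il1 was at 145 CPM, above 113 to 118 CPM.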

How the results depend on the processing

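Over all tested genes 805 were called, 1450 by DESeq2, 492 without Sept2C111A libraries 2 and 3, 1626 at an adjusted p under 0.1, 1422 with the length trend removed, and 266 to 2077 with 1 library left out. Rab genes called higher numbered 1, but 2 by DESeq2, 0 without Sept2C111A libraries 2 and 3, 3 at 0.1, 5 without the length trend and 0 to 3 with 1 library left out. It was 0 when wild-type library 1, 2, 3 or 4 or Sept2C111A library 2 was left out. Of all tested genes 2.12% to 3.77% were called in those settings, and 3.86% without Sept2C111A libraries 2 and 3. Rab genes called higher numbered 3 without Sept2C111A library 3 (Rab29, Rab3d, Rab6b) or 4 (Rab13, Rab29, Rab9). As shares of tested members, calls were 4.08% by DESeq2, 6.12% at 0.1 and 10.2% without the length trend. For all tested genes the shares were 11.6%, 13.0% and 11.5%. Without Sept2C111A library 3 they were 6% of members and 5.66% of all tested genes, and without library 4 they were 6% and 16.5%. Rab genes called lower numbered 0, and 0 to 1 with 1 library left out. Regulators and effectors called numbered 8, but 14 at 0.1, 16 without the length trend and 0 to 20 with 1 library left out. The 20 were called without Sept2C111A library 4, where 16.5% of all tested genes were called. The 0 was found without wild-type library 1, 3 or 4, where 2.12% to 2.99% of all tested genes were called. Class medians moved to 0.0574 (early endosomal), 0.34 (phagosome) and 0.0896 (secretory) without Sept2C111A libraries 2 and 3, to -0.0477 (late endosomal) without the length trend, and to 0.0521 (secretory) with the 1 CPM filter. With 1 library left out, the secretory median ran from 0.10 to 0.20 and the ER and Golgi median from -0.0517 to 0.0104. The log2 fold change of Rab1b ran from -0.0193 to 0.0584 with 1 library left out, and changed sign without Sept2C111A library 3 (-0.0193), without libraries 2 and 3 (-0.0155) and without the length trend (-0.0083). The causes were not tested.

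Same-numbered libraries had correlations of their deviations of 0.15, 0.10, -0.02 and -0.31, and 1 of 4 numbers matched its own number best, so the numbers were not taken to pair the samples. With a replicate block, 494 genes, 0 Rab genes (Rab29 at an adjusted p of 0.0506, edgeR) and 2 regulators (Rab3il1 and Rab11fip1) were called. Dennd1b, Tbc1d22a, Plekhm1, Rab11fip5, Pik3c3 and Micall2 did not pass with it (adjusted p of 0.0544 to 0.109).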
